A study of Rattus norvegicus with 7 samples.

Results

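The genes described here encode the nuclear subunits of the mitochondrial respiratory chain and ATP synthase, with the factors that assemble complexes I and II and 1 pseudogene of complex IV, Cox6c-ps1. They were taken as the probe sets whose only gene symbol in the platform annotation begins with Nduf, Uqcr, Sdha to Sdhd, Cox4 to Cox8 or Atp5. That gave 101 probe sets for 90 genes, out of 31042 probe sets other than controls and 14217 genes with a probe set of their own. Another 7 probe sets were left out because they name several genes: those of Atp5mc1, Atp5mc2, Cox7a2, Ndufa10, Ndufs5 and Uqcrb, each shared with a close copy, and a second probe set of Cox5a. The arrays, which cover the rat genome, had measured testis RNA of adult male Sprague-Dawley rats. The rats were untreated (0 h, n = 3) or were killed 8 h (n = 2) or 20 h (n = 2) after 1 intraperitoneal injection of 3 mg/kg cadmium chloride, which is known to injure the testis. Each array is a biological replicate per the labels, taken to be 1 animal, and so few arrays limit the precision.

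The respiratory chain passes electrons from NADH and succinate to oxygen and pumps protons across the inner mitochondrial membrane, and ATP synthase uses the returning protons to make ATP. Complex I (most Nduf genes) takes electrons from NADH and complex II (Sdh genes) from succinate. Complex III (Uqcr genes) hands them to cytochrome c, and complex IV (Cox genes) reduces oxygen. Genes were grouped by symbol here, so Ndufa4 and Ndufa4l2 are counted with complex I. Several complex IV subunits exist as isoforms: Cox6b2 and Cox7b2 are known as testis forms, Cox6a2, Cox7a1 and Cox8b as heart and muscle forms, and Cox4i2 as a form of lung and of low oxygen. Many of these genes are known targets of the nuclear factors NRF1, GABP and YY1.

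RefSeq promoters of GRCr8, from 250 bases before to 50 bases after the start, were found for 82 of the 90 genes. On either strand, the NRF1 letters (GCGCA, then any base, then GCGC) stood in 17 of the 82 (20.7%), against 4.8% of 27457 genes with a promoter. CCGGAAG, the ETS core bound by GABP, stood in 25 (30.5%) against 9.6%, and ATGGCGGC of YY1 in 13 (15.9%) against 2.9%. The cyclic AMP element TGACGTCA stood in 3 (3.7%) against 2.0%, and ACGTG, the core bound by hypoxia-inducible factors, in 21 (25.6%) against 20.9%. These matches describe letters only. The promoters below belong to a ubiquitous subunit of complex IV (Cox4i1 chr19:65630133-65630432 on the plus strand), a core subunit of complex I (Ndufs1 chr9:72073556-72073855 on the minus strand), the gene whose signal was higher on every cadmium array by the widest gap (Sdhaf3 chr4:36066713-36067012 on the plus strand) and the testis form Cox6b2 (Cox6b2 chr1:78122621-78122920 on the plus strand). Capitals mark the NRF1, ETS and YY1 letters. Cox4i1 holds the ETS letters at bases 4 and 24 after the start, Ndufs1 the ETS letters at -199 and the YY1 letters at -32, and Sdhaf3 the ETS letters at -114 and the NRF1 letters at -18. The Cox6b2 window holds no such letters.
Cox4i1: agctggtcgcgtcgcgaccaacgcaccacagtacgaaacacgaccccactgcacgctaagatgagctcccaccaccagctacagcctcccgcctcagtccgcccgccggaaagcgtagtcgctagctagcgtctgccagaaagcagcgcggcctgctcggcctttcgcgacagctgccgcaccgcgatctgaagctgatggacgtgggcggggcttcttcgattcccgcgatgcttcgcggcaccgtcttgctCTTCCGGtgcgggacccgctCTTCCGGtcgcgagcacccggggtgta
Ndufs1: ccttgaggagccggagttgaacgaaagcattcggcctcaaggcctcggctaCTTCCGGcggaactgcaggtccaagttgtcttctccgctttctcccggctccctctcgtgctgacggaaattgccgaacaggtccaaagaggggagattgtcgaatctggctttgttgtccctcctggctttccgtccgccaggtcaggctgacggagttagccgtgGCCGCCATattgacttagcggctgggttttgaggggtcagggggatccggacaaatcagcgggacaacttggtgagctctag
Sdhaf3: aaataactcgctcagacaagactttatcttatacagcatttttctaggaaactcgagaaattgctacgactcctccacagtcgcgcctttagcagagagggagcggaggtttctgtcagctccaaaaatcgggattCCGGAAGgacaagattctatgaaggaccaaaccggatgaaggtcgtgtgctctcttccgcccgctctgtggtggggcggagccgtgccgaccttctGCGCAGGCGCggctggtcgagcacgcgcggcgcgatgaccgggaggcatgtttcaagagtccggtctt
Cox6b2: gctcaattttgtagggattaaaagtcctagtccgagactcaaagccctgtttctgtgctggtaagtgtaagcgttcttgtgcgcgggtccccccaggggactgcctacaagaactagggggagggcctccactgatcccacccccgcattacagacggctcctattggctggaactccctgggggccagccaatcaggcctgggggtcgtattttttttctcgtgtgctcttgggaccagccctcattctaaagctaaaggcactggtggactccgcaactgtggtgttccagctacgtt

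Of the 101 probe sets, 97 (88 genes) exceeded the 40th percentile of their array on at least 2 arrays and were tested. The 4 below this limit were those of Cox7a1 and Cox8b, a second probe set of Ndufa9 and a cross-hybridizing probe set of Atp5if1. Of the 97, 88 lay above the median signal of the array on all 7 arrays, and that median ran from 52.8 to 71.9. No single-gene probe set names Cox8c. Spermatid markers, which define the tissue, were mostly strong. Prm1, a protamine that packs sperm DNA and the brightest of them, gave 16767.1 to 28755.9, whereas Hspa1l of the same list gave 24.7 to 78.3. The arrays had been hybridized on 3 days per the file headers. Day 1 held 20 h replicate 1 and untreated replicate 1, day 2 held only untreated replicate 2, and day 3 held both 8 h arrays, 20 h replicate 2 and untreated replicate 3. Untreated replicate 2 had been stained at 25 °C for 600 s in the first step, the others at 35 °C for 300 s, and its instrument file gives mouse as the sample type. Each comparison is therefore also given from a fit with the day as a blocking term (the day-block fit) and as a same-day difference, in which the untreated array of the day is subtracted from a cadmium array on the log2(signal + 15) scale. Untreated replicate 2, alone on its day, carries no weight in the day-block fit. That fit thus rests on untreated replicates 1 and 3 as controls.

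The levels of the respiratory chain genes split by hybridization day. Each day held only 1 untreated array, so a day and its control animal cannot be told apart. Untreated replicate 3, the control of day 3, lay above the mean of the other untreated arrays in 79 of the 97 probe sets (81.4%), with a median log2 difference of 0.27. Over all 20857 probe sets tested that share was 40.9% and the median -0.11. At an equal trimmed mean of 250.1, untreated replicate 3 had a median signal of 57, and untreated replicates 1 and 2 had 71.9 and 68.8. Members were mostly bright, with 88 of 97 above the array's median signal throughout. The part of signal level in this contrast, and in later ones with all probe sets, was not tested. Among members, the median difference was 0.44 in complex III, 0.33 in complex I and 0.29 in complex II. It was 0.24 in ATP synthase and 0.19 in complex IV, but -0.02 in complex I assembly factors and 0.03 in those of complex II. All 8 probe sets of complex III and all 5 of complex II lay higher on untreated replicate 3, and 35 of 38 in complex I. The difference reached 0.94 in the bright probe set of Atp5me, a small membrane subunit of ATP synthase, with signals of 776.6, 761.1 and 1492.4 on untreated replicates 1, 2 and 3. In Ndufa9, a complex I subunit, it was 0.90 (1344.5, 1516.6 and 2677.9). Both were picked with their values known. Of the cadmium arrays, those of day 3 lay above the untreated mean by a median of 0.14 and 0.15 (8 h replicates 1 and 2) and 0.17 (20 h replicate 2), whereas 20 h replicate 1 of day 1 stood at -0.09.

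**Figure D1:**
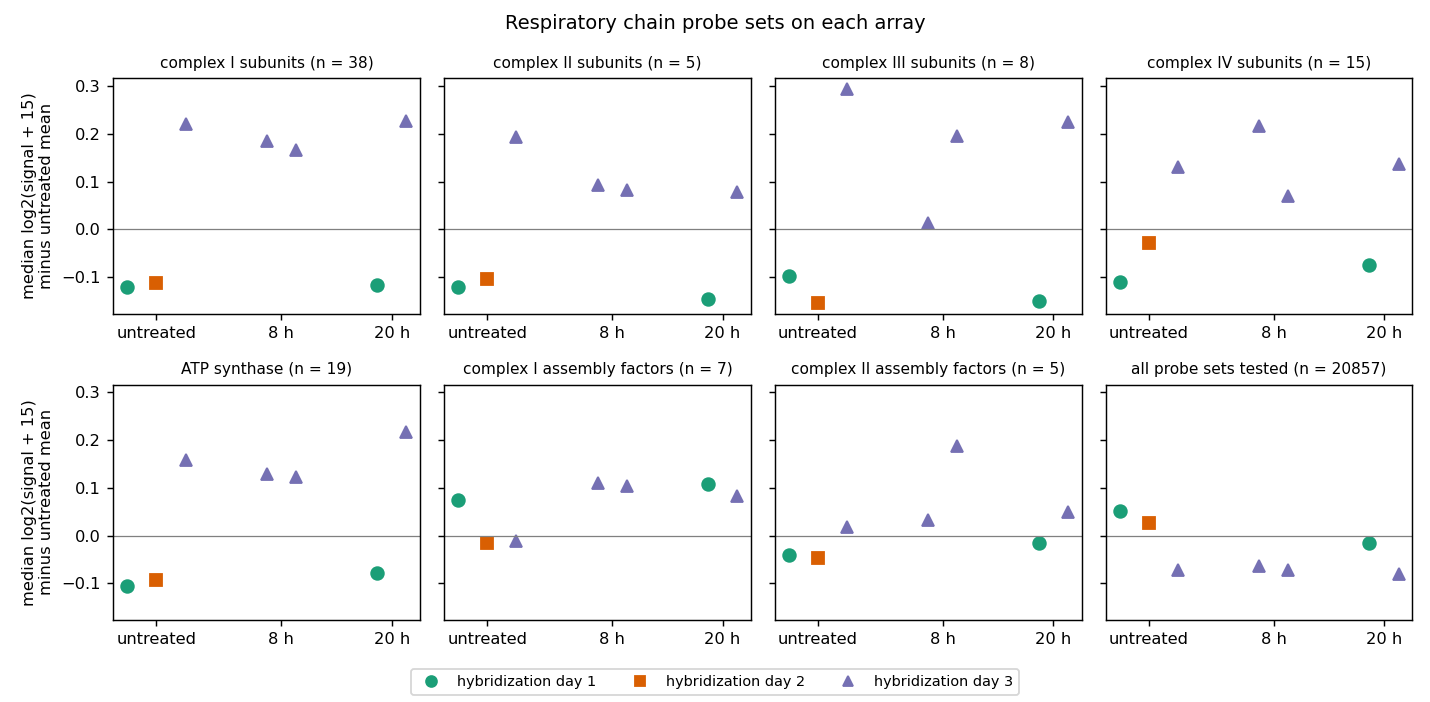
Median log2(signal + 15) of each group of genes on each of the 7 arrays, relative to the mean of the 3 untreated arrays, with untreated, 8 h and 20 h arrays along the horizontal axis and colour and shape for the hybridization day. In complexes I to IV and ATP synthase the 4 day 3 arrays stand above the 3 others, including untreated replicate 3, whereas the median of all probe sets is lower on day 3.

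Other measures moved with the day as well. The summed signal of 12 measured spermatid marker genes, of 15 listed and with none at 0, was 159149.8 to 164820.5 at 8 h, and at 20 h it was 119251.3 on replicate 1 and 167987.5 on replicate 2, against 112590.4 to 166130.3 in untreated testis. The log2 ratio of 3' to 5' actin signal, which reflects how intact the RNA was and how far it was copied, lay between 1.191 and 1.422 for day 3 arrays and between 0.733 and 0.985 for the others. The GAPDH control did not split this way, and its 5' signal was above its 3' signal on every array. It gave 2158.3 (5') and 1956.8 (3') on untreated replicate 3 of day 3, and 2215.4 and 2038.3 on untreated replicate 1 of day 1. The part of the spermatid sum and of RNA quality in the levels of the respiratory chain genes was not tested. In whole tissue, fewer cells of a type and less RNA per cell cannot be told apart.

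At 8 h, 71 of the 97 probe sets had a higher mean than in untreated testis, where 39% of all probe sets did, and the median log2 fold change was 0.14, against -0.08 over all probe sets. Under quantile normalization the median was 0.04, against 0.01 over all probe sets, and the count of higher members was 58. This count was 81 after scaling to the 75th percentile, and 64 to 78 with single arrays left out. The shares over all probe sets under these settings are not given here. The shift was widest in complex I, with 30 of 38 higher and a median of 0.20. It was 0.14 in complex IV (10 of 15 higher) and ATP synthase (15 of 19), 0.10 in complex III (7 of 8) and -0.003 in complex II (2 of 5). Assembly factors had medians of 0.04 for complex I (4 of 7 higher) and 0.18 for complex II (3 of 5). With the day as a block the median was -0.04 and 37 of 97 were higher, and complex I had -0.04 (13 of 38), so the direction turned. Over all probe sets the day-block fit gave a median of -0.02, with 9748 of 20857 higher. Taken within day 3, the medians were -0.03 for replicate 1 and -0.06 for replicate 2 of 8 h, with 37 and 38 of 97 higher. All probe sets had medians of -0.001 and -0.01 there, with 49.8% and 48.5% higher. In limma's test with Benjamini-Hochberg adjustment over all probe sets, 0 members passed an adjusted p of 0.05, as did 0% of all probe sets, and the lowest among members was 0.836. Without adjustment, 4 of 97 members had a p under 0.05, 1 higher and 3 lower, where 5.22% of all probe sets were called (1.16% higher and 4.06% lower). This count of members was 35 without untreated replicate 3, a setting for which the share over all probe sets is not given here. Both 8 h arrays lay above all untreated arrays in 20 members (7.59% of all probe sets) and below them in 10 (15.4% of all probe sets). Both 8 h arrays are of day 3, whose only control is untreated replicate 3. Day, animal and treatment therefore cannot be fully told apart in these counts.

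The core enzymes showed the day pattern. Ndufs1, the large iron-sulphur subunit of complex I, gave 1981.0 and 1874.7 at 8 h, against 1418.0, 1370.1 and 1758.1 in untreated testis. Both 8 h arrays were higher than all controls, but untreated replicate 3, of the same day, was nearest to them. Its log2 fold change was 0.35 ± 0.17 (SE; limma's adjusted p = 0.836), and 0.10 in the day-block fit. Uqcrfs1, the Rieske iron-sulphur protein of complex III, gave 13629.9 and 13612.2 at 8 h, against 9926.3, 9169.5 and 13023.0 in untreated testis. Its log2 fold change stood at 0.36 ± 0.18 (SE), and 0.06 in the day-block fit. Atp5f1a, the alpha subunit of the ATP synthase head, gave 5630.7 and 5825.4 at 8 h, against 4608.7, 4515.3 and 5401.9 in untreated testis, a log2 fold change of 0.25 ± 0.14 (SE) and 0.07 with the block. The catalytic beta subunit Atp5f1b ran from 7497.0 to 7859.9 at 8 h, against 6340.7 to 7329.5 in untreated testis. Ndufv1, the NADH-binding subunit of complex I, ran from 1496.6 to 1542.5 at 8 h, against 1166.4 to 1540.9 in untreated testis. In complex II the flavoprotein Sdha ran from 1685.5 to 1706.5 at 8 h, against 1360.9 to 1744.8 in untreated testis, and the iron-sulphur subunit Sdhb from 1431.1 to 1694.0, against 1276.3 to 1956.3. Uqcrc1, a core protein of complex III, ran from 3173.3 to 3339.1 at 8 h, against 2991.0 to 3279.3 in untreated testis. The 8 h and untreated arrays overlapped in Ndufv1, Sdha, Sdhb and Uqcrc1 but not in Atp5f1b.

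**Figure D2:**
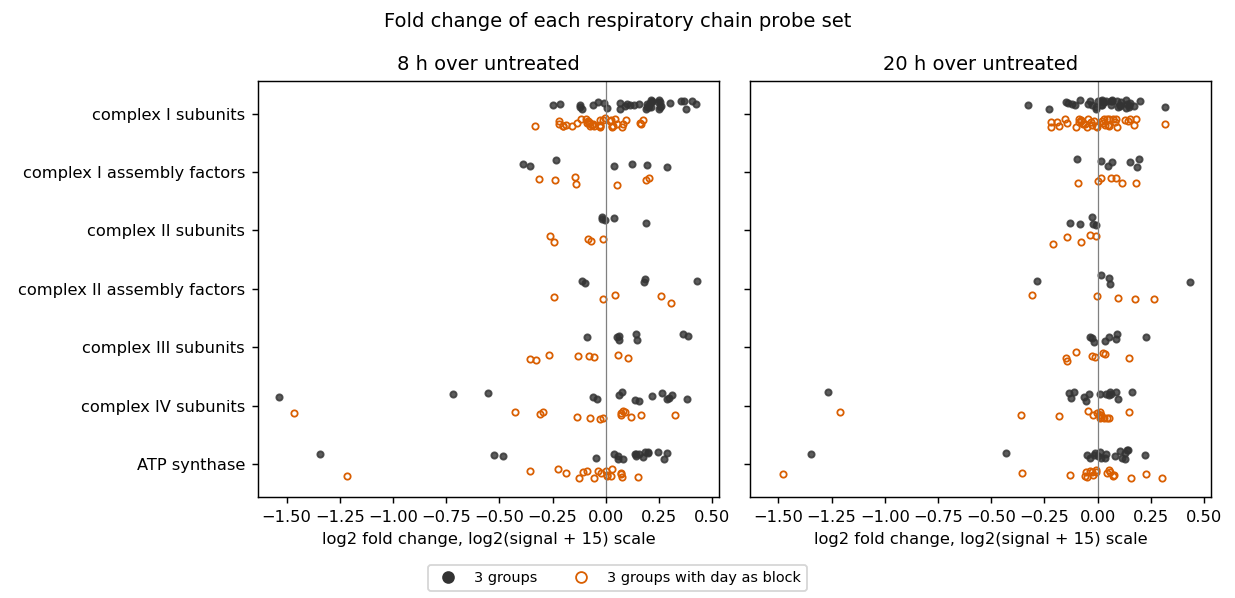
Log2 fold change of each of the 97 probe sets tested, at 8 h and at 20 h over untreated testis, by complex. Filled points come from the fit of 3 groups and open points from the fit with the hybridization day as a block, in which the median at 8 h lies at -0.04 and not at 0.14. Cox6a2 and a dim probe set of Atp5po lie far below 0 in both fits. These probe sets were tested only through their untreated arrays, so their fall is in part fixed by the filter.

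Cox6b2, the testis form of the complex IV subunit that bridges the dimer, was the 1 member higher at 8 h at an unadjusted p under 0.05. It gave 7680.5 and 8269.0 at 8 h, against 6277.3, 5996.5 and 6085.8 in untreated testis. The groups did not overlap, and here untreated replicate 3 lay between the other controls. The log2 fold change was 0.38 ± 0.13 (SE; unadjusted p = 0.0141, limma's adjusted p = 0.836). It was 0.33 in the day-block fit and the same-day differences were 0.34 and 0.44. The ubiquitous form Cox6b1 gave 787.0 and 713.0 at 8 h, against 571.1, 619.3 and 851.7 in untreated testis, and its groups overlapped. The summed signal of 8 measured spermatocyte marker genes, of 11 listed and with none at 0, was 40447.7 to 40904.7 at 8 h, against 31404.8 to 36582.0 in untreated testis. Ldhc, the sperm lactate dehydrogenase, singled out after its values were seen, carried much of that gap, with 15733.1 and 15215.7 at 8 h, against 10914.6, 10267.9 and 14213.6 in untreated testis. Its log2 fold change was 0.41, and 0.09 in the day-block fit. Without Ldhc the sums overlapped, at 24714.6 and 25689.0 at 8 h, against 25667.4, 21136.9 and 21640.8 in untreated testis. Of the 9 spermatocyte probe sets, 7 had a higher mean at 8 h, where 39% of all probe sets did, and 0 passed limma's test. Smc1b, also chosen after its values were seen, was the 1 with an unadjusted p under 0.05. It gave 2083.5 and 2432.6 at 8 h, against 1654.7, 1827.2 and 1193.6 in untreated testis. The log2 fold change of Smc1b was 0.55, and 0.76 in the day-block fit. The part of spermatocyte RNA in the Cox6b2 signal was not tested.

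The other testis form, Cox7b2, differed from Cox6b2. It gave 11102.3 and 10692.5 at 8 h, against 7943.9, 7929.3 and 11115.7 in untreated testis. The high control was that of day 3, and the log2 fold change of 0.29 ± 0.19 (SE) turned to -0.01 in the day-block fit. Its ubiquitous partner Cox7b ran from 331.3 to 372.1 at 8 h, against 290.9 to 357.7 in untreated testis. Cox4i1, the common form of subunit 4, gave 9604.7 and 9573.6 at 8 h, against 7280.5, 7633.2 and 9182.5 in untreated testis. Its log2 fold change was 0.26 ± 0.15 (SE), 0.07 with the block and -0.02 under quantile normalization. Cox6a1 ran from 1956.4 to 1981.7 at 8 h, against 1745.1 to 2065.1 in untreated testis, Cox8a from 992.8 to 1116.6, against 935.0 to 1074.2, and Cox7a2l, a supercomplex factor, from 905.5 to 980.9, against 807.0 to 1248.1. The 8 h and untreated arrays overlapped in Cox7b, Cox6a1, Cox8a and Cox7a2l but not in Cox4i1.

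**Figure D3:**
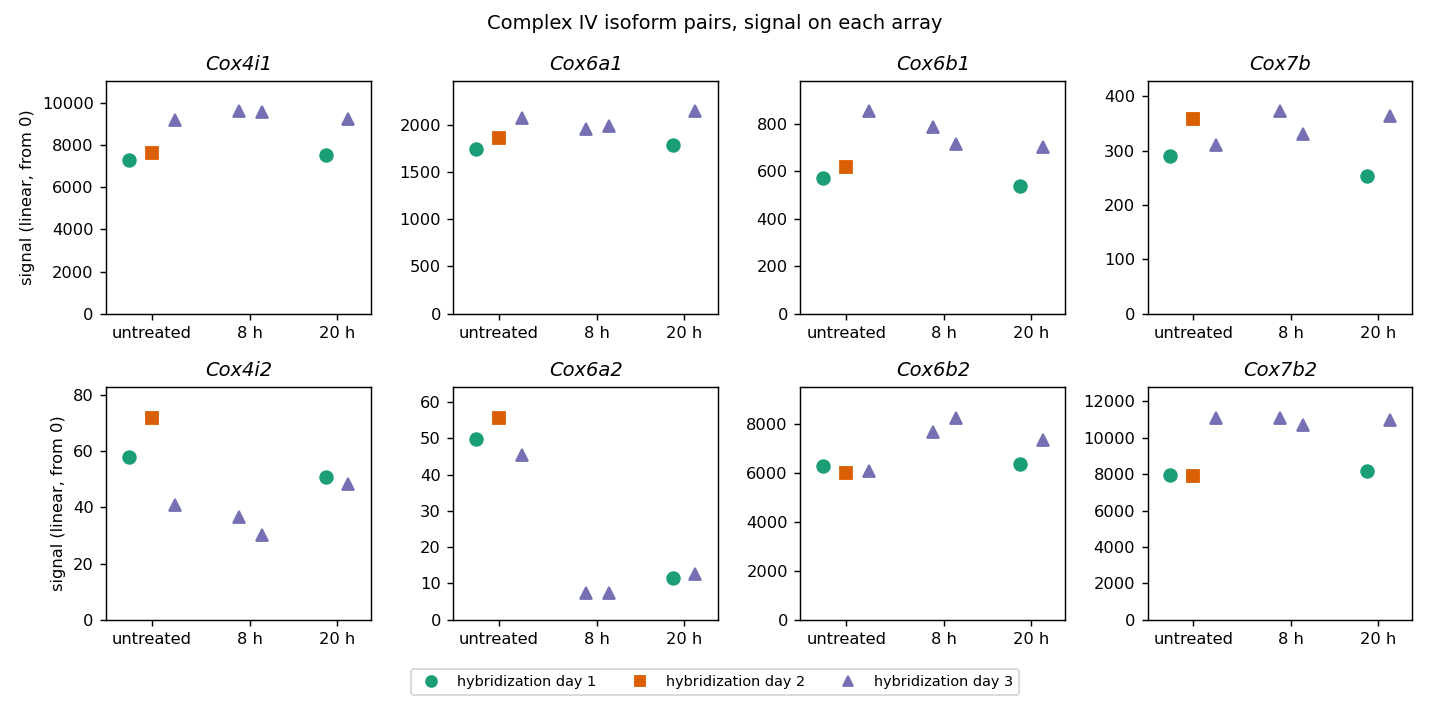
Signal of 4 pairs of complex IV isoforms on each array, common forms above and Cox4i2, Cox6a2, Cox6b2 and Cox7b2 below, with untreated, 8 h and 20 h arrays along each axis and colour and shape for the hybridization day. Each vertical axis starts at 0 and has its own scale. Cox6b2 is higher on both 8 h arrays than on all untreated arrays, whereas Cox7b2 splits by day, and Cox6a2 is at 12.6 or less on all 4 cadmium arrays.

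Among members lower at 8 h, Cox6a2, the heart and muscle form of subunit 6a, gave 7.5 and 7.4 at 8 h, against 49.7, 55.7 and 45.4 in untreated testis. It was dim on every array, below the array's median signal, and on the cadmium arrays it was below the 15 added before the log. The fitted log2 fold change was -1.54 ± 0.38 (SE; unadjusted p = 0.00245, limma's adjusted p = 0.836), and -1.47 in the day-block fit. Both Cox6a2 and the second probe set of Atp5po were tested only because their untreated arrays exceeded the limit of the filter, so their difference was in part fixed by it. Atp5po encodes the stalk protein of ATP synthase that confers sensitivity to oligomycin. Its dim probe set gave 11.2 and 17.6 at 8 h, against 67.4, 46.9 and 64.7 in untreated testis, a log2 fold change of -1.34 ± 0.41 (SE). Its bright probe set gave 2745.2 and 2861.0 at 8 h, against 2264.9, 2378.9 and 3037.6 in untreated testis. The log2 fold change of the bright probe set was 0.14 in the fit of 3 groups but -0.11 in the day-block fit, with same-day differences of -0.15 and -0.09. The bright and dim probe sets thus differed in direction in the fit of 3 groups. Within day 3 both lay lower at 8 h, the bright one by far less. Endothelial markers were low on the same arrays: 9 measured genes of 10 listed, with none at 0, summed to 457.7 and 719.3 at 8 h, against 749.0 to 924.9 in untreated testis. Their part in the Cox6a2 signal was not tested. The other muscle forms were too dim to test: Cox7a1 gave 9.6 and 34.5 at 8 h and 9.3 and 9.6 at 20 h, against 44.6, 20.0 and 7.9 in untreated testis. Cox8b gave 2.1 and 9.7 at 8 h and 22.2 and 37.0 at 20 h, against 8.3, 5.5 and 4.8 in untreated testis.

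Cox5a, a matrix-side subunit of complex IV, was the 1 further member lower at 8 h at an unadjusted p under 0.05. Its single-gene probe set gave 153.0 and 161.6 at 8 h, against 332.2, 271.2 and 213.3 in untreated testis. The other probe set of Cox5a names several genes and was not read here. Both 8 h arrays were below all controls, and the nearest control was that of day 3. The log2 fold change was -0.72 ± 0.23 (SE; unadjusted p = 0.0124, limma's adjusted p = 0.836), and -0.43 in the day-block fit. Cox5b, which forms a pair with Cox5a in the enzyme, gave 5797.6 and 5352.6 at 8 h, against 4051.6, 4460.3 and 5017.3 in untreated testis. Cox5b was chosen after its values were seen.

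The highest positive log2 fold changes at 8 h were those of Sdhaf3 and Ndufa3, and neither passed. Sdhaf3, an assembly factor that protects the iron-sulphur subunit of complex II, gave 288.5 and 254.9 at 8 h, against 234.3, 152.9 and 214.2 in untreated testis. Its log2 fold change was 0.43 ± 0.21 (SE; limma's adjusted p = 0.836), and 0.31 in the day-block fit. Ndufa3, a small membrane subunit of complex I, gave 841.5 and 828.1 at 8 h, against 568.2, 588.0 and 704.7 in untreated testis. Its log2 fold change was 0.43 ± 0.29 (SE) and 0.02 in the day-block fit, but its same-day differences were 0.25 and 0.23.

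At 20 h, 62 of the 97 probe sets had a higher mean than in untreated testis, where 41.2% of all probe sets did. This comparison uses the same untreated arrays as that at 8 h. The median log2 fold change was 0.03, against -0.05 over all probe sets. In the day-block fit it was -0.0012, against -0.04 over all probe sets. The median of the 3-group fit was 0.03 in complex I and ATP synthase, 0.04 in complex III, 0.01 in complex IV and -0.03 in complex II, where all 5 probe sets were lower. Assembly factors had medians of 0.07 for complex I (6 of 7 higher) and 0.05 for complex II (4 of 5). The 20 h arrays lay on different days. Without 20 h replicate 2, 24 of 97 members were higher, with a median of -0.09, and without 20 h replicate 1, 80 were, with a median of 0.17. Without untreated replicate 1 the count was 41 and the median -0.01, and quantile normalization gave 43 and scaling to the 75th percentile 79. For these settings the shares over all probe sets are not given here. Against the control of its own day, 20 h replicate 1 had a median of 0.02 (53 of 97 higher) and 20 h replicate 2 one of -0.02 (43 of 97). Over all probe sets these medians were -0.06 and -0.02, with 42% and 47.8% higher. No member passed limma's test, with a lowest adjusted p of 0.999 (0% of all probe sets passed). At an unadjusted p under 0.05 there were 2 members, both lower, that is 2 of 97 where 3.11% of all probe sets were called (0.767% higher and 2.34% lower). Both 20 h arrays lay above all untreated arrays in 3 members (4.65% of all probe sets) and below them in 5 (10.7% of all probe sets).

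The 2 lower members were again Cox6a2 and the dim probe set of Atp5po, both tested only through their untreated arrays, so that these p-values and folds are in part fixed by the filter and by the 15 added. Cox6a2 gave 11.5 and 12.6 at 20 h, against 45.4 to 55.7 in untreated testis, with a log2 fold change of -1.27 ± 0.38 (SE; unadjusted p = 0.00763, limma's adjusted p = 0.999) and -1.21 in the day-block fit. It was low on both 20 h arrays alike, and the summed endothelial signal was 461.7 on 20 h replicate 1 and 755.8 on replicate 2. The dim Atp5po probe set gave 25.9 and 5.7 at 20 h, against 46.9 to 67.4 in untreated testis, a log2 fold change of -1.35 ± 0.41 (SE). All 4 cadmium arrays lay below all untreated arrays in 3 members (4.9% of all probe sets), these and a dim probe set of Ndufv3.

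All 4 cadmium arrays lay above all untreated arrays in Sdhaf3 and Cox6b2, that is in 2 members (1.82% of all probe sets). Sdhaf3 gave 279.3 and 265.5 at 20 h, against 152.9 to 234.3 in untreated testis, with a log2 fold change of 0.44 ± 0.21 (SE; limma's adjusted p = 0.999) and 0.27 in the day-block fit. Its same-day differences were 0.24 and 0.29 at 20 h, after 0.41 and 0.24 at 8 h. Cox6b2 gave 6375.0 and 7353.7 at 20 h, against 5996.5 to 6277.3 in untreated testis, a log2 fold change of 0.16 ± 0.13 (SE) and 0.15 in the day-block fit. The same-day difference was 0.02 on 20 h replicate 1 and 0.27 on replicate 2. The spermatocyte sum was 37054.9 and 41475.9 at 20 h, against 31404.8 to 36582.0 in untreated testis, and without Ldhc it was 25919.0 and 25732.1 at 20 h, against 21136.9 to 25667.4 in untreated testis. The third member above the untreated range at 20 h was Atp5if1, the inhibitor that stops ATP synthase from running in reverse. Its bright probe set gave 2362.3 and 2363.1 at 20 h, against 1926.8, 2033.6 and 2114.4 in untreated testis. The log2 fold change was 0.22 ± 0.12 (SE; limma's adjusted p = 0.999), and 0.23 in the day-block fit. A dimmer probe set gave 96.5 and 42.6 at 20 h, against 110.6, 104.7 and 68.7 in untreated testis, and differed in direction. The highest log2 fold change after that of Sdhaf3 was in a dim probe set of Ndufa7, with 42.3 and 62.5 at 20 h, against 50.1, 38.4 and 28.9 in untreated testis, a log2 fold change of 0.32 ± 0.33 (SE). Its bright probe set gave 1673.9 and 2145.3 at 20 h, against 1582.1 to 2007.8 in untreated testis.

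**Figure D4:**
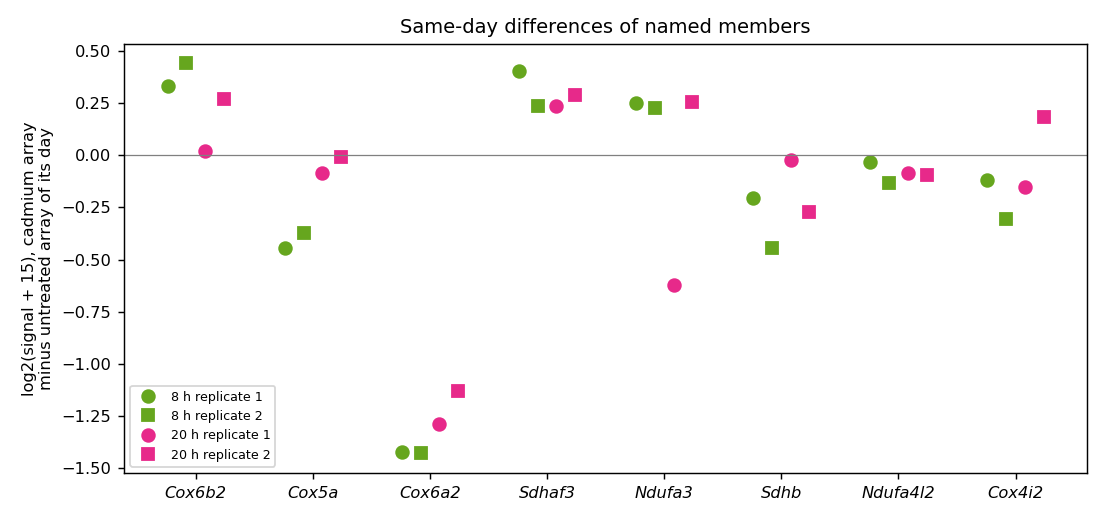
Same-day difference on the log2(signal + 15) scale, the day's untreated array subtracted from each cadmium array, for 8 members along the horizontal axis, with colour for the time and shape for the replicate. Sdhaf3 and Cox6b2 lie above 0 and Cox5a, Cox6a2, Sdhb and Ndufa4l2 below 0 on all 4 arrays, and Ndufa3 is at -0.62 on 20 h replicate 1 only. Both 8 h arrays and 20 h replicate 2 share the same control, untreated replicate 3, so the 4 differences are not independent. Near 0 are Cox6b2 at 0.02 and Sdhb at -0.02 on 20 h replicate 1, and Cox5a at -0.0076 on 20 h replicate 2.

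The members linked to low oxygen had lower means than in untreated testis at both times, and neither passed the test. Ndufa4l2, which in human and mouse cells is induced by hypoxia-inducible factor and lowers complex I activity, gave 226.8 and 210.4 at 8 h and 245.7 and 216.8 at 20 h, against 261.7, 274.9 and 232.1 in untreated testis. The 20 h arrays overlapped the controls and the 8 h arrays lay just below them. The log2 fold change was -0.21 ± 0.17 (SE) at 8 h and -0.14 ± 0.17 (SE) at 20 h, and -0.08 and -0.09 in the day-block fit. Cox4i2 gave 36.5 and 30.2 at 8 h and 50.7 and 48.5 at 20 h, against 58.1, 72.0 and 40.9 in untreated testis. Cox4i2 had a log2 fold change of -0.55 ± 0.31 (SE) at 8 h and -0.13 ± 0.31 (SE) at 20 h, and in the day-block fit -0.30 at 8 h and 0.015 at 20 h. On 20 h replicate 1, Bnip3, a receptor for mitophagy that low oxygen induces, stood at 1400.3, against 209.9 on the untreated array of its day. It was high on that array only, with 133.4 on 20 h replicate 2 and 281.0 and 166.9 at 8 h, against 209.9, 226.0 and 236.8 in untreated testis. Bnip3 was chosen after its values were seen. On the day 1 pair of arrays Ndufa4l2 was at 245.7 against 261.7, and Cox4i2 at 50.7 against 58.1.

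Same-day differences beyond 0.5 were few in these genes. They were found at 8 h in 3 (replicate 1) and 4 (replicate 2) of 97 members and at 20 h in 5 on each array, among them Cox6a2 and the dim Atp5po probe set on each array. Over all probe sets, 10.4% lay above and 10.2% below that limit on 8 h replicate 1, and 9.3% above and 11% below on 8 h replicate 2. At 20 h these shares were 5.4% and 13.5% on replicate 1 and 9% and 11% on replicate 2. The members were brighter than probe sets at large, with 88 of 97 above the median signal on all arrays. The part of signal level in these shares was not tested. On 20 h replicate 1, Ndufa3 gave 364.1 against 568.2 on the untreated array of its day, a difference of -0.62. Sdhaf1, an assembly factor of complex II, gave 313.8 on that array against 461.7, a difference of -0.54. On 20 h replicate 2 the same genes gave 845.0 against 704.7 and 431.9 against 458.1. Sdhaf1 was chosen after its values were seen.

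Between the times, 24 of 97 members had a higher mean at 20 h than at 8 h, where 52.6% of all probe sets did, with a median log2 difference of -0.11, against 0.02 over all probe sets. With the day as a block 64 members were higher and the median was 0.03, against 9712 of 20857 and -0.02 over all probe sets. Without 20 h replicate 1, 62 of 97 members were higher with a median of 0.03, and the median without 20 h replicate 2 was -0.24. No member passed limma's test (lowest adjusted p = 1.00, with 0% of all probe sets called), and 1 had an unadjusted p under 0.05, that is 1 of 97 where 1.92% of all probe sets were called (1.22% higher and 0.7% lower). This was Cox5a, with 312.4 and 212.1 at 20 h, against 153.0 and 161.6 at 8 h, a log2 difference of 0.66 ± 0.26 (SE; unadjusted p = 0.0277) and 0.38 in the day-block fit. The dim probe set of Atp5me had 46.8 and 28.6 at 20 h, against 17.7 and 25.8 at 8 h, a log2 difference of 0.51 ± 0.50 (SE). The lowest differences were those of Ndufa3, at -0.57 ± 0.32 (SE), which was 0.02 without 20 h replicate 1, and of Ndufb7, another accessory subunit of complex I, at -0.28 ± 0.21 (SE). Ndufb7 had 1050.3 and 1186.5 at 20 h, against 1454.5 and 1276.4 at 8 h.

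Other genes of the pathway were counted from set lists, and 0 of their probe sets passed limma's test in any comparison (2 of 13, 2 of 31, 1 of 15, 0 of 10 and 1 of 19 had an unadjusted p under 0.05 at 8 h in the order given here, where 5.22% of all probe sets did, and none at 20 h, where 3.11% did). The counts of higher means below stand against 39% of all probe sets at 8 h and 41.2% at 20 h. For each list the gene with the largest change at 8 h is named.

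The list of electron carriers came down to cytochrome c1, the electron-transfer flavoproteins and enzymes of coenzyme Q synthesis, since the genes of cytochrome c itself had no single-gene probe set to use here. Of its 13 probe sets, 5 had a higher mean at 8 h (median -0.07, and -0.05 in the day-block fit) and 2 at 20 h (median -0.18, and -0.21 in the day-block fit). Coq2, which attaches the side chain of coenzyme Q, gave 52.2 and 49.4 at 8 h, against 96.8, 94.6 and 63.5 in untreated testis. Of 31 probe sets for assembly factors of complexes III and IV, 14 were higher at 8 h (median -0.03, day-block -0.07) and 17 at 20 h (median 0.02, day-block 0.02). A dim probe set of Lrpprc, which stabilizes mitochondrial messenger RNA, gave 54.5 and 3.3 at 8 h, against 63.1, 56.4 and 60.2 in untreated testis, so 1 array set its mean. Its brightest probe set gave 998.7 and 969.5 at 8 h, against 1007.0, 820.5 and 994.5 in untreated testis, and the groups overlapped.

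The tricarboxylic acid cycle had 7 of 15 probe sets higher at 8 h (median -0.02) and 9 at 20 h (median 0.01), and both medians turned in the day-block fit, to 0.02 at 8 h and -0.0057 at 20 h. Idh3a, a subunit of the NAD-linked isocitrate dehydrogenase, gave 324.1 and 262.2 at 8 h, against 216.5, 213.4 and 221.1 in untreated testis. Both 8 h arrays lay above all controls, and at 20 h it gave 212.6 and 202.6, below all controls. Carriers and porins had 6 of 10 higher at 8 h (median 0.08) and 4 at 20 h (median -0.03), and these turned to -0.01 and 0.0063 in the day-block fit. The dimmer probe set of Vdac1, a pore of the outer membrane, gave 108.1 and 124.9 at 8 h, against 172.7, 221.5 and 108.7 in untreated testis, where the low control was that of day 3. Of 19 probe sets for regulators of mitochondrial biogenesis, 12 were higher at each time (medians 0.06 and 0.06), but in the day-block fit the median was -0.04 at 8 h and 0.06 at 20 h. Ppargc1a, the coactivator that drives many of these genes, gave 11 and 7.6 at 8 h and 34.1 and 31.0 at 20 h, against 83.6, 62.8 and 20.3 in untreated testis. That probe set was dim, and its control of day 3 lay nearest to the 8 h arrays. None of the 13 listed subunits encoded by mitochondrial DNA was measured under its own name.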

How the data were processed

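Testis RNA from 7 rats had been hybridized to Affymetrix Rat230_2 arrays. The authors deposited MAS 5.0 intensity values, linear in scale, and the series' design text names GeneSpring 7.2; every array had a trimmed mean of 250.1. Other values, such as hybridization day and staining, come from instrument settings per the file headers. No detection calls were used here.

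After 57 control probe sets were removed, 15 was added to each signal before taking log2. A probe set was tested if 2 or more arrays exceeded their own 40th percentile (20857 did). One limma 3.58.1 fit (R 4.3.3; eBayes with trend) covered the 3 groups, and Benjamini-Hochberg adjustment ran over everything tested, at 0.05. The scripts were tested on simulated data. Alternatives were quantile normalization, 75th percentile scaling, 50 in place of 15, a filter at the 60th percentile or none, the day or the replicate number as a block, no trend, each array left out, and day 3 arrays alone. Counts of higher members under these settings were added after seeing the data.

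The members and lists were chosen with earlier results of these data known. Named were core subunits and isoforms from a list, the 2 highest and 2 lowest fold changes per comparison, and the widest gap each way between cadmium and untreated arrays; other genes are marked as chosen after their values were seen.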

Additional observations from a re-analysis of the deposited data

How the results depend on the processing

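The count of members that passed limma's adjusted p of 0.05 was 0 in each comparison under all alternatives that left at least 2 arrays in each group. At an unadjusted p under 0.05, 35 members were counted for 8 h without untreated replicate 3. The share over all probe sets under that setting is not given here, so this count cannot be read as particular to the members. The median log2 fold change at 8 h moved by more than the spread between arrays (SD 0.15) in the day-block fit, to -0.037, and on day 3 arrays alone, to -0.063; the day and the day's lone control cannot be told apart there. With single arrays left out this median ran from 0.07 to 0.25, that of 20 h over untreated from -0.09 to 0.17 and that of 20 h over 8 h from -0.24 to 0.03. Under quantile normalization they were 0.04 (all probe sets 0.01), -0.01 and -0.07, and scaling to the 75th percentile gave 0.25 at 8 h (all probe sets 0.02), with 81, 79 and 16 of 97 members higher in the 3 comparisons in that order, against 58, 43 and 30 under quantile normalization. The shares of all probe sets with a higher mean under these settings are not given here.

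Of 25 fold changes of single probe sets, 21 kept their direction under all alternatives and 0 passed in any, with adjusted p of 0.188 or more. These 25 are those printed here with an SE. Some were named for the largest changes in these data, so their kept direction was in part fixed by that choice. Those of Cox6a2 and the dim Atp5po probe set were also in part fixed by the filter. Of the other 59 fold changes of named genes, 45 turned direction under at least 1 alternative and 0 passed in any. Direction turned in Cox4i1 at 8 h under quantile normalization (-0.024), in Cox7b2 at 8 h under quantile normalization (-0.0082), the day block (-0.015) and day 3 arrays alone (-0.029), and in Cox4i2 at 20 h under quantile normalization (0.027), the day block (0.015) and day 3 arrays alone (0.18), with -0.30 to 0.015 as arrays were left out. Ndufa3 between the times was 0.017 on day 3 arrays alone and ran from -1.16 to 0.017 as arrays were left out. The cause was not tested.

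The replicate numbers did not pair the arrays: differences between replicates 1 and 2 correlated at -0.0014, 0.09 and 0.14 between groups. With the replicate block 0 members passed in each comparison, and the medians were 0.25, 0.15 and -0.11 in the same order. At 8 h 33 members then had an unadjusted p under 0.05, and the share over all probe sets under this block is not given here. Untreated replicate 3, which has no partner, carries no weight in that fit. Dim probe sets limit what can be said of Cox6a2, Cox4i2, Cox7a1 and Cox8b.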
